A study of Mus musculus with 17 samples.

Results

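The late retinoic acid (RA) response of mouse embryonic stem cells was compared between wild-type cells and *Usb1* knockout cells. The late response of a gene is its change from day 1 to day 3 of RA treatment, and the interaction is the late response of the knockout minus that of wild-type cells. The comparison used 12 of the 17 RNA-seq libraries of the study, with 3 biological replicates of each genotype at day 1 and at day 3, and covered 19580 of 54532 listed genes, those with at least 1 TPM (reads per length of the gene, scaled to the same total in every library) in at least 3 of the 12 libraries. All cells were of the R1/E line, which carries a Y chromosome, and the labels name no other allele. The wild-type groups were unedited R1/E cells treated with RA for 1 or 3 days, and the knockout groups were a single CRISPR/Cas9-edited line, KO-1, treated for the same times. A difference between clones can therefore not be told apart from the knockout. Untreated cells of both genotypes (2 wild-type and 3 knockout libraries at day 0) entered a separate check, the plots by day and an alternative fit on all 17 libraries. P-values measure the spread between these libraries and not between knockout lines.

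RA enters the nucleus with the help of the binding protein CRABP2 and is the ligand of RAR receptors, which bind DNA as heterodimers with RXR and switch on genes such as those of the Hox clusters. The CYP26 enzymes degrade RA and are themselves RA-induced, which closes a feedback loop. In embryonic stem cells RA ends self-renewal, and the cells move toward extraembryonic endoderm and other fates depending on culture. FGF4, made by the stem cells, signals through ERK, and the *Dusp*, *Spry*, *Spred* and *Etv* genes respond to ERK and in part limit it. USB1 is the exonuclease that trims the oligo(U) tail of U6 snRNA.

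*Usb1* (ENSMUSG00000031792; chromosome 8, 95332284 to 95347507 in GRCm38) measured 56.9, 48.6 and 51.9 TPM in wild-type libraries at day 1 and 20.7, 21.4 and 18.5 TPM in those of the knockout. The levels at day 3 were 33.7, 32.0 and 35.8 TPM without and 14.7, 17.2 and 20.4 TPM with the knockout. Knockout and wild-type libraries did not overlap at either day, and the mRNA was still detected in the knockout. Its interaction of 0.41 was not past the threshold (adjusted p = 0.131, limma). The stem cell markers *Pou5f1*, *Nanog*, *Sox2*, *Zfp42* and *Esrrb* were all present at day 1, with *Pou5f1* at 956 to 983 TPM in wild-type libraries and 1085 to 1121 TPM in those of the knockout. All 9 Y-linked genes listed were at 0 TPM in each knockout library, while their summed level was 129.5 to 139.8 TPM in wild-type libraries at day 3. The knockout line therefore differed from the wild-type cells by more than *Usb1* mRNA, and the part of this in the results was not tested.

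The 12 libraries held 15505026 to 17300186 reads on genes. Across the genes tested, Pearson's r of log2(TPM + 1) between libraries of the same group was 0.965 to 0.978, which is a description across genes. Knockout replicate 1 at day 3 stood apart. It had 1212 genes of a single read, against 2228 to 2448 in the other 11 libraries, and 1572 of the tested genes at 0 TPM, against 759 to 1037. Results were therefore also computed without it.

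Between day 1 and day 3, 544 genes changed differently in the genotypes, which is 2.78% of the genes tested. The call required an adjusted p under 0.05 (limma, Benjamini-Hochberg over all genes tested) and a difference of at least 2-fold on the log2(TPM + 1) scale, which understates the change of genes of low TPM. The interaction was positive for 412 genes (2.1%), which moved up more or down less in the knockout, and negative for 132 genes (0.674%). Of the 544 genes, 455 are protein-coding, and 198 had late changes of opposite sign in the genotypes, as had 4265 of the 19580 genes tested. The signs were counted whether or not either change passed. The median interaction of all genes tested was 0.14 and not 0, since the knockout libraries at day 1 were lower by a median of 0.14 in log2, with a median difference of −0.00 at day 3. When the libraries were quantile normalized, which removes such a shift, 256 genes were higher and 202 lower, and 380 of the 544 genes remained called, so the balance of directions depended on the scaling. Without knockout replicate 1 at day 3, 542 genes were higher and 134 lower, and 496 of the 544 remained. Of the 544 genes, 330 were called whichever of the 12 libraries was left out.

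At day 1, 98 genes were higher (0.501% of those tested) and 410 lower (2.09%) in the knockout, 2.59% together. At day 3, 118 were higher (0.603%) and 171 lower (0.873%), 1.48% together. The 410 genes that were lower at day 1 had a median difference of −1.26 in the libraries that chose them and of −0.23 at day 3, in libraries that played no part in the choice. Of them, 304 no longer passed an adjusted p of 0.05 at day 3, 88 passed in the same direction, and 18 passed in the opposite direction. Of the 98 genes that were higher at day 1, with a median of 1.33, 68 no longer passed at day 3, where their median was 0.22. The genes that were lower at day 3 included 37 that were already lower at day 1. Genes chosen at day 3 were likewise closer at day 1, with medians of 1.23 at day 3 and 0.04 at day 1 for the 118 higher genes and of −1.31 and −0.44 for the 171 lower ones. A smaller difference in the libraries that did not choose the genes was thus seen both ways in time, and does not by itself show a narrowing. Most of the genes that differed at day 3 had not been called at day 1. The late change itself was called for 3355 genes in wild-type cells (17.1%), upward in 8.57% and downward in 8.56% of those tested, and for 3383 genes in the knockout (17.3%), upward in 10.7% and downward in 6.56%. With the adjusted p alone and no fold minimum, 9.19% of genes passed in the interaction, 20.9% at day 1, 9.25% at day 3, and 50.3% and 52.2% in the late change of wild type and knockout.

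**Figure D1:**
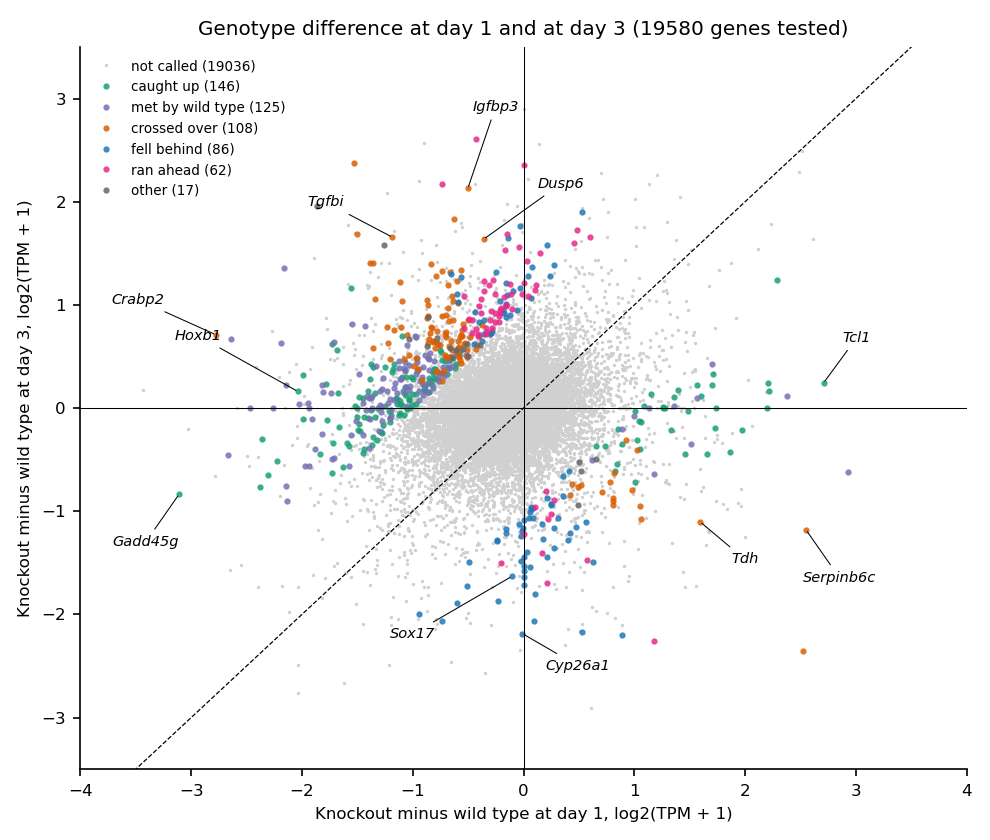
Each point is a gene, placed by the difference between knockout and wild type at day 1 (horizontal axis) and at day 3 (vertical axis), both in log2(TPM + 1), with the 544 interaction genes coloured by class; a gene on the dashed diagonal kept its difference, and 5 genes lie outside the axes. The coloured genes sit away from the diagonal, mostly above it on the left, where a gene was lower in the knockout at day 1 and near or above wild type at day 3, with *Crabp2* the farthest of those named and *Cyp26a1* below the horizontal line.

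The 544 genes were sorted by the genotype differences at both days, which come from the libraries of the interaction, so the class sizes are a description. In 146 genes, which caught up, a day 1 difference shrank by day 3 and the knockout made the larger late change. In 125 genes the day 1 difference also shrank, but through the larger change of the wild-type cells, so the wild type met the knockout. A further 108 genes crossed over, with differences that passed at both days in opposite directions. In another 86 genes, which fell behind, the difference passed at day 3 and was at least as large as at day 1, and the knockout moved less. Moving less includes falling less, and of the 86 the interaction was positive in 34 and negative in 52. In 62 genes, which ran ahead, such a difference went with a knockout that moved at least as far. The last 17 fit none of these. Of the genes that crossed over, 90 went from below wild type to above it and 18 from above to below, and 12 differed by at least 2-fold at both days. Over all genes tested the median difference at day 1 was −0.14 in log2, and the 90 and 18 were not corrected for this shift.

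The untreated libraries, which do not enter the interaction, were read for the same genes. The genotypes differed before RA (adjusted p under 0.05, limma, no fold minimum) in 52 of the 146 genes that caught up (35.6%), 50 of the 125 met by wild type (40%) and 48 of the 108 that crossed over (44.4%). Among all genes tested this was 13.2%. Of these genes, 50, 49 and 45 differed in the direction that they had at day 1, as did 2096 of the 2588 among all genes tested. Among the genes that fell behind and ran ahead the counts were 17 of 86 (19.8%) and 6 of 62 (9.68%). In wild-type replicate 1 at day 0, 239 genes had a single read, while the remaining day 0 libraries had 1341 to 2341 such genes, and without it the counts were 42, 42, 38, 5 and 3 in the same order, against 6.06% of all genes tested. Day 0 held 2 wild-type libraries, so the counts without replicate 1 measure no spread between wild-type libraries. No conclusion is drawn from them. The genes that caught up, were met by wild type or crossed over were classed by a day 1 difference. Genes called at day 1 were read at day 0 as well, with a 2-fold minimum at day 1 that the classes do not have. Of all genes called at day 1, 53 of the 98 higher and 159 of the 410 lower in the knockout differed at day 0 in the same direction, whether or not the interaction was called. It was called for 44 of the 98 and 171 of the 410, so these genes are not a set apart from the classes.

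The gene lists read next share genes, so the same call can be counted in several of them. Among all genes tested, 2.1% were called positive and 0.674% negative in the interaction. Genes that bind, take up or degrade RA moved in both directions. Of 20 tested genes of RA metabolism, binding and receptors, 4 were called with a positive interaction (*Crabp2*, *Stra6*, *Nrip1* and *Cyp26b1*) and 2 with a negative one (*Cyp26a1* and *Cyp26c1*). The median interaction of the 20 genes was 0.28, beside 0.14 over all genes tested. After quantile normalization *Nrip1* (0.93) and *Cyp26b1* (0.89) fell under the 2-fold minimum and the other 4 calls stayed. After scaling to an equal median 2 genes were positive and 3 negative, *Dhrs3* (−1.05) being the third, so the balance of directions turned.

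*Crabp2*, which carries RA to its receptors (ENSMUSG00000004885; chromosome 3, 87948666 to 87953376), had the most positive interaction of the protein-coding genes with a group mean of at least 5 TPM. Its level was 71.1, 61.0 and 65.5 TPM in wild-type libraries and 11.6, 6.90 and 8.28 TPM in those of the knockout at day 1. By day 3 it measured 82.6, 101 and 73.5 TPM in wild-type libraries and 148, 141 and 130.3 TPM in those of the knockout. Each knockout library was below each wild-type library at day 1 and above each at day 3. The log2 interaction was 3.49 (SE 0.22, adjusted p = 1.16e-05), made of a knockout rise of 3.85 and a wild-type change of 0.36 that did not pass (adjusted p = 0.0744).

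*Stra6*, the receptor through which cells take up retinol, was at 16.7, 14.4 and 13.8 TPM in wild-type libraries and 4.11, 4.66 and 2.50 TPM in those of the knockout at day 1, without overlap. At day 3 the genotypes overlapped, at 8.82, 8.12 and 7.76 TPM and 8.24, 7.81 and 6.64 TPM. The wild type fell by 0.79 and the knockout rose by 0.87 in log2, and the interaction was 1.66 (SE 0.24, adjusted p = 0.00174). *Nrip1*, a cofactor that RA-bound receptors induce, went from 16.7 to 32.8 TPM (group means) in the knockout, with an interaction of 1.09 (adjusted p = 0.0189, limma).

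The CYP26 enzymes separated. *Cyp26a1* (ENSMUSG00000024987; chromosome 19, 37697798 to 37701536) was at 104, 118 and 112 TPM in wild-type libraries and 116, 107 and 108 TPM in those of the knockout at day 1, with overlapping groups. By day 3 it measured 440.1, 419 and 347 TPM in wild-type libraries and only 84.3, 113 and 69.0 TPM in knockout libraries, without overlap. The wild type rose by 1.84 in log2, the knockout changed by −0.34 (adjusted p = 0.0804), and the interaction was −2.18 (SE 0.21, adjusted p = 0.000166). *Cyp26c1*, which lies 4399 bases from *Cyp26a1* on chromosome 19, was at 15.5, 14.2 and 15.8 and 18.3, 18.0 and 15.1 TPM in wild-type and knockout libraries at day 1, and at 15.8, 13.7 and 19.9 and 5.10, 7.04 and 4.63 TPM at day 3. It stayed level in wild-type cells and fell by 1.47 on the log2 scale in the knockout, so its interaction of −1.57 (SE 0.22, adjusted p = 0.00159) came from the knockout. *Cyp26b1*, on chromosome 6, took the opposite course. It was lower in the knockout at day 1, at 1.11 to 1.58 TPM against 3.87 to 4.23 TPM, and overlapped with wild type at day 3, at 25.9, 45.6 and 28.3 TPM against 36.7, 33.1 and 30.6 TPM (interaction 1.07 (SE 0.26, adjusted p = 0.0262)). *Dhrs3*, whose product turns retinaldehyde back into retinol, was at 101, 100.1 and 91.7 TPM in wild-type libraries and 51.3, 59.3 and 41.9 TPM in those of the knockout at day 3, with no overlap, and its interaction of −0.83 (adjusted p = 0.00797, limma) was under the 2-fold minimum.

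The RA receptors themselves showed little of this. *Rara* and *Rarg* had interactions of 0.02 and −0.02. *Rarb*, a direct RA target, was lower in the knockout at both days, at 4.31, 4.23 and 4.48 against 7.60, 6.78 and 6.65 TPM at day 1 and at 15.0, 19.1 and 14.8 against 23.3, 24.1 and 28.1 TPM at day 3. It rose by 1.69 in the knockout and by 1.71 in wild-type cells (log2), so the gap was kept and the interaction was −0.02 (adjusted p = 0.959, limma).

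*Cyp26a1* and *Rarb* are shown with their promoter sequences because both windows hold a match to a classical RA response element while the interactions of the genes differ. RefSeq promoters (GRCm38.p6, 250 bases before to 50 after the start of the gene) were searched on both strands for DR5 elements, 2 hexamers in the same orientation separated by 5 bases, with each hexamer spelled AGGTCA or otherwise spelled AGTTCA, or as a further form GGTTCA, or as the last form GGGTCA. The match in capitals lies 53 to 37 bases before the start of *Rarb* on the strand of the gene (chr14:16575477-16575566, minus strand) and 32 to 16 bases before the start of *Cyp26a1* on the opposite strand (chr19:37697718-37697807, plus strand). These distances count from the RefSeq starts. That of *Cyp26a1* lies within the gene positions given above, which come from another annotation (GENCODE). Each line gives 90 bases 5′ to 3′ on the strand of the gene.
*Rarb*: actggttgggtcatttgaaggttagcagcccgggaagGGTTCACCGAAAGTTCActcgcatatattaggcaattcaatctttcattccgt
*Cyp26a1*: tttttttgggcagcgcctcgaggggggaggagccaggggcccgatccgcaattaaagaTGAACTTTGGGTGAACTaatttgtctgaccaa

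Such a match was found in 32 of 32851 promoters (0.0974%), and in 2 of the 45 RA and Hox list genes with a promoter in the table, these being *Rarb* and *Cyp26a1*. Of 344 interaction genes with a promoter, 1 had a match, which was *Cyp26a1*, and of all 11742 tested genes with a promoter 5 had one. DR2 elements, the same hexamers separated by 2 bases, were found in 88 of the 32851 promoters, in 16 of the 11742 and in 0 of the 344. A match of letters is not a measurement of binding, and elements outside the window were not searched.

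**Figure D2:**
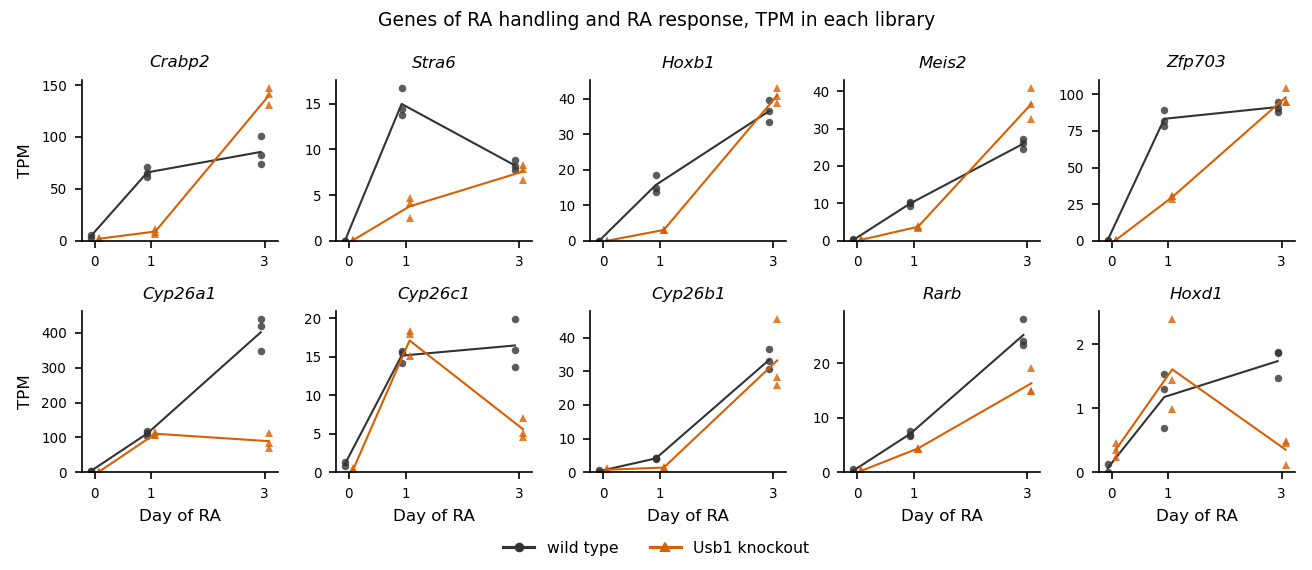
TPM in each library at day 0, 1 and 3 of RA for 10 genes of RA handling and response, with wild-type libraries as circles, knockout libraries as triangles and lines through the group means; each panel has its own vertical axis from 0. *Crabp2*, *Stra6*, *Hoxb1*, *Meis2* and *Zfp703* are lower in the knockout at day 1 and near or above wild type at day 3, while *Cyp26a1* and *Cyp26c1* are level at day 1 and lower in the knockout at day 3.

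Of 26 RA target genes, 7 had a called positive interaction and 1, *Cyp26a1*, a negative one, and the median was 0.59. Most of these calls are not particular to this list. *Crabp2*, *Stra6*, *Nrip1* and *Cyp26a1* were counted above, and *Hoxb1*, *Meis2* and *Gbx2* are counted again in lists below. At day 1, 10 of the 26 were lower in the knockout and at day 3, 2 were, beside 2.09% and 0.873% of all genes tested. *Hoxb1*, the hindbrain Hox gene with RA elements on both of its sides, was at 18.6, 13.8 and 14.8 TPM in wild-type libraries and 3.01, 2.97 and 3.14 TPM in those of the knockout at day 1. At day 3 the groups overlapped, at 39.6, 36.5 and 33.6 and 38.8, 43.1 and 40.9 TPM. The knockout rose by 3.37 and the wild type by 1.17 in log2, an interaction of 2.20 (SE 0.15, adjusted p = 1.91e-05). *Zfp703*, which encodes a zinc-finger corepressor, was at 30.3, 28.6 and 30.5 TPM in knockout and 78.5 to 89.3 TPM in wild-type libraries at day 1, and reached 94.4 to 105 TPM beside 88.2 to 94.9 TPM at day 3 (interaction 1.55 (SE 0.09, adjusted p = 5.67e-06)). *Stra8*, the meiosis gene named for its stimulation by RA, had the highest level on this list at day 1, 841 to 905 TPM in wild-type libraries and 382 to 421 TPM in those of the knockout. It stayed lower in the knockout at day 3, at 209 to 225 TPM against 281 to 314 TPM, with an interaction of 0.68 under the 2-fold minimum (adjusted p = 0.000699, limma).

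Beyond *Hoxb1*, the Hox gene called in the interaction was *Hoxd1*. From day 1 to day 3, 14 of 31 tested Hox genes rose in wild-type cells and 15 in the knockout, beside 8.57% and 10.7% of all genes tested. Of the 31, 1 had a called positive and 1 a called negative interaction (6.45% together), beside 2.78% of all genes tested. The median was 0.25, but 0.09 after quantile normalization and 0.03 after scaling to an equal median. The negative gene, *Hoxd1*, was at 1.86, 1.48 and 1.87 TPM in wild-type libraries and 0.104, 0.489 and 0.457 TPM in those of the knockout at day 3. Its call was lost without knockout replicate 1 at day 3 (−1.14, adjusted p = 0.0609, limma) and with replicate number as a block. *Hoxa5*, with the highest level of the list, was at 100.5 to 112 TPM in wild-type libraries and 78.4 to 83.3 TPM in those of the knockout at day 1 and had an interaction of 0.25 (adjusted p = 0.112).

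The TALE homeobox genes, which encode cofactors of Hox proteins and related factors, had 5 called positive interactions and none that was negative among 16 (median 0.54). There were 4 after quantile normalization or with replicate number as a block, and 3 after scaling to an equal median. *Meis2* was at 10.4, 9.36 and 10.0 TPM in wild-type libraries and 3.998, 3.52 and 3.70 TPM in those of the knockout at day 1, and at 27.3, 24.4 and 26.2 and 32.4, 36.4 and 40.9 TPM at day 3. The knockout libraries lay below all wild-type libraries at day 1 and above all of them at day 3 (interaction 1.68 (SE 0.14, adjusted p = 6.22e-05)). *Irx3* also crossed over, with 14.5 to 16.1 TPM in the knockout beside 22.8 to 26.4 TPM in wild-type libraries at day 1, then 67.3 to 84.7 TPM beside 39.8 to 47.4 TPM at day 3. *Pknox2* was lower in the knockout at day 1 and did not differ past the threshold at day 3, with an interaction of 1.60. *Irx4*, also called, was below 3 TPM in each library.

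Of 20 FGF and ERK feedback genes, 9 had a called positive interaction and none a negative one, with a median of 0.95. At day 1 a single gene was called in each direction. At day 3, 9 were higher and 2 (*Fgfr3* and *Fgfr4*) lower in the knockout, beside 0.603% and 0.873% of all genes tested. After quantile normalization the calls were 6 positive and 1 negative, after scaling to an equal median 5 and 1, and without knockout replicate 1 at day 3, 10 and 0. *Dusp6*, the phosphatase that inactivates ERK, was at 61.6, 59.5 and 65.8 TPM in wild-type libraries and 49.98, 50.1 and 44.9 TPM in those of the knockout at day 1. Its day 3 levels were 16.1, 17.5 and 17.6 TPM in wild-type libraries and 51.0, 58.9 and 55.9 TPM in those of the knockout. It fell by 1.81 on the log2 scale in wild-type cells and not in the knockout (0.19, adjusted p = 0.0480, a small rise), and the groups lay apart at both days in opposite order (interaction 2.00 (SE 0.10, adjusted p = 2.57e-06)).

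The inhibitors of the Sprouty family had the same order of levels at day 3. *Spry2* was at 36.5, 35.3 and 34.5 TPM in wild-type libraries and 73.5, 79.5 and 77.1 TPM in those of the knockout at day 3, after 54.5 to 56.6 and 48.9 to 50.5 TPM at day 1. It fell by 0.63 on the log2 scale in wild-type cells and rose by 0.61 in the knockout, an interaction of 1.24 (SE 0.07, adjusted p = 5.13e-06). *Spry4* fell in both, to 0.848, 1.06 and 0.809 TPM in wild-type libraries and 2.07, 2.73 and 3.48 TPM in those of the knockout (interaction 1.65 (SE 0.20, adjusted p = 0.000699)). The related inhibitors *Spred1* and *Spred2* had interactions of 1.00 and 1.21, with *Spred1* at 55.3 to 63.1 TPM in the knockout against 24.98 to 29.7 TPM in wild-type cells at day 3. *Spry1* was higher in the knockout at day 3, at 29.7, 25.5 and 28.3 against 13.5, 12.9 and 13.0 TPM, with an interaction of 0.93 under the 2-fold minimum.

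The ETS factor *Etv5*, which ERK activity keeps on, fell from 213 to 233 TPM at day 1 to 15.5 to 17.1 TPM at day 3 in wild-type cells and from 187 to 219 TPM at day 1 to 32.2 to 40.1 TPM at day 3 in the knockout, so the fall was less deep in the knockout (interaction 1.23 (SE 0.12, adjusted p = 0.000226)). *Fgf4*, the ligand, fell from 234 to 245 TPM at day 1 to 1.98 to 3.45 TPM at day 3 in wild-type cells and from 258 to 288 TPM at day 1 to 9.26 to 11.5 TPM at day 3 in the knockout. Its interaction was 1.37 (SE 0.19, adjusted p = 0.00136). *Dusp4*, a nuclear phosphatase of ERK, ran ahead and was at 47.8, 63.9 and 61.2 TPM in knockout and 28.9, 27.3 and 28.0 TPM in wild-type libraries at day 3 (interaction 1.16 (SE 0.16, adjusted p = 0.00143)). The receptor gene *Fgfr2* caught up from 4.42, 5.16 and 4.52 TPM at day 1, when wild-type libraries were at 15.2, 10.98 and 12.2 TPM, to 37.0, 44.1 and 41.1 TPM beside 45.4, 44.0 and 48.0 TPM. The other members were not called, and of those *Etv4* was higher in the knockout at both days (0.91 and 1.44 in log2).

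**Figure D3:**
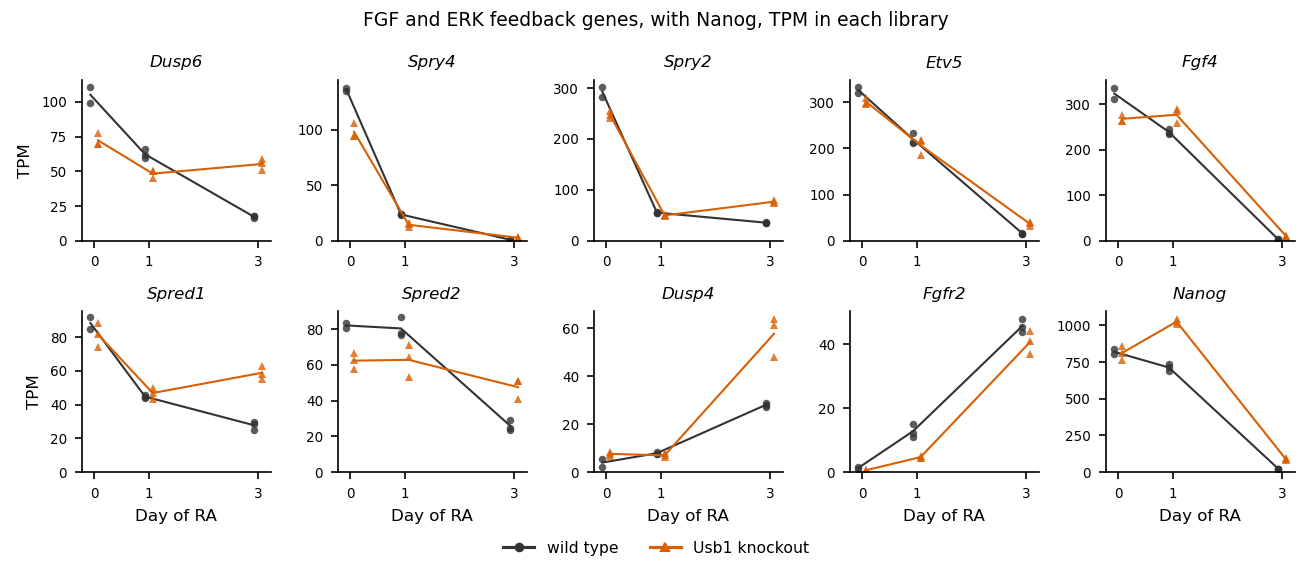
TPM in each library at day 0, 1 and 3 of RA for the 9 called FGF and ERK feedback genes and *Nanog*, with wild-type libraries as circles, knockout libraries as triangles and lines through the group means; each panel has its own vertical axis from 0. At day 3 the knockout libraries are above all wild-type libraries in each panel except that of *Fgfr2*, where the groups overlap.

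Most naive pluripotency genes fell in both genotypes. Of 20 naive pluripotency genes, 14 fell in wild-type cells and 17 in the knockout from day 1 to day 3, beside 8.56% and 6.56% of all genes tested. The interaction was called positive for 3 (*Nanog*, *Fgf4* and *Gbx2*) and negative for 3 (*Tdh*, *Tcl1* and *Spp1*), with a median of 0.06. After scaling to an equal median the calls were 3 positive and 5 negative. *Nanog*, a core factor of self-renewal, was at 689.9, 715 and 734 TPM in wild-type libraries and 1006, 1026 and 1044 TPM in those of the knockout at day 1. The day 3 levels were 23.5, 24.2 and 20.2 TPM in wild-type libraries and 82.0, 86.3 and 93.3 TPM in those of the knockout, so it was higher in the knockout without overlap at both days. Its late change was −4.92 in wild-type cells and −3.54 in the knockout on the log2 scale, an interaction of 1.38 (SE 0.10, adjusted p = 2.23e-05). *Sox2* had the same interaction sign (1.13 (SE 0.10, adjusted p = 9.01e-05); 0.92 after scaling to an equal median) and was at 109, 123 and 112 TPM in wild-type libraries and 209.6, 249 and 211 TPM in those of the knockout at day 3. *Pou5f1* and *Esrrb* had interactions of 0.31 (adjusted p = 0.0603) and 0.67 (adjusted p = 0.0185, limma), neither past both thresholds. *Zfp42* had an interaction of −0.40, and *Klf4* of −0.86, both negative and under the 2-fold minimum.

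*Tdh*, the threonine dehydrogenase of mouse stem cells, crossed over in the opposite direction. Its level was 10.7, 11.4 and 10.0 TPM in wild-type libraries and 35.2, 35.2 and 32.8 TPM in those of the knockout at day 1, against 16.9, 25.6 and 20.1 TPM and 9.48, 9.31 and 8.38 TPM at day 3. It rose in wild-type cells and fell in the knockout (interaction −2.70 (SE 0.18, adjusted p = 1.5e-05)). *Tcl1*, a coactivator of AKT, was at 71.2, 58.8 and 65.0 TPM in knockout and 9.77, 8.40 and 9.07 TPM in wild-type libraries at day 1 and overlapped at day 3, below 4 TPM in each library (interaction −2.46 (SE 0.40, adjusted p = 0.00348)). *Spp1*, which encodes osteopontin, went from above to below wild type, with 381 to 416 against 283 to 305 TPM at day 1 and 142 to 158 against 246 to 268 TPM at day 3. Of 20 core and formative pluripotency genes, 5 had a positive and 1 a negative call (median 0.52; 3 and 1 after scaling to an equal median). The positive ones included *Sox2*, *Otx2*, *Sox3* and *Etv5*, and the negative one was *Mycn*.

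Among the genes of primitive and visceral endoderm, the extraembryonic fate marked by GATA and SOX17 factors, those called at day 1 or at day 3 were lower in the knockout. Of 29 genes, 14 were lower in the knockout at day 1 and 14 at day 3, beside 2.09% and 0.873% of all genes tested, with none higher at either day. The interaction was called positive for 2 and negative for 2, with a median of 0.01. This split depended on the processing, with 1 positive and 3 negative calls after quantile normalization or scaling to an equal median. It was 4 and 1 with voom, and 1 and 2 with replicate number as a block. In each genotype 24 of the 29 rose from day 1 to day 3, beside 8.57% of all genes tested in wild-type cells and 10.7% in the knockout. Their summed level was 9955.6 to 11524 TPM in wild-type and 5321.7 to 6529 TPM in knockout libraries at day 3, after 1549.8 to 1816 and 1146 to 1375 TPM at day 1. *Col4a1* was the most abundant in wild-type and *Lamc1* in knockout libraries at day 3, and none of the 30 listed genes was at 0 then. In bulk samples, fewer cells of a type and less RNA per cell cannot be told apart. *Col4a1*, a basement membrane collagen, was at 149.98, 123 and 126 TPM in wild-type libraries and 55.5, 53.6 and 48.4 TPM in those of the knockout at day 1 and at 2411, 2206 and 2506 and 992, 1302 and 962 TPM at day 3, an interaction of 0.18.

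The endoderm genes that fell behind were *Sox17* and *Cited1*. *Sox17*, an endoderm transcription factor, was below 1 TPM in each library at day 1 and at 40.0, 40.3 and 38.6 TPM in wild-type libraries and 13.5, 12.6 and 10.4 TPM in those of the knockout at day 3. Both genotypes rose, and the groups did not overlap at day 3 (interaction −1.53 (SE 0.17, adjusted p = 0.000453)). On recovered reads the call of *Sox17* was lost (−1.46, adjusted p = 0.0722, limma voom). *Cited1*, a transcriptional coactivator, rose to 62.7, 58.1 and 52.5 TPM in wild-type libraries and 20.2, 20.8 and 16.6 TPM in those of the knockout (interaction −1.60 (SE 0.25, adjusted p = 0.00305)). *Gata4* was lower in the knockout at both days, 1.87 to 2.70 against 4.22 to 5.30 TPM and 21.4 to 30.5 against 81.7 to 92.7 TPM, with an interaction of −0.87 (adjusted p = 0.0205, limma) under the 2-fold minimum. *Sox7* and the endocytic receptor gene *Lrp2* were the members that caught up, *Sox7* from 5.46, 4.49 and 4.77 TPM beside 29.2, 29.9 and 30.0 TPM to 32.5, 37.4 and 34.0 TPM beside 57.3, 59.0 and 62.7 TPM, which left it still lower (interaction 1.61 (SE 0.11, adjusted p = 2.08e-05)). *Gata6* also narrowed its gap, from −1.71 to −0.79 in log2, with an interaction of 0.92 under the 2-fold minimum.

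Genes listed for trophectoderm, the outer lineage of the blastocyst, had 6 positive and 1 negative call among 15. Their median was 0.58, with 0.39 after quantile normalization and 0.11 with voom. No member was called at day 1, and 4 were higher in the knockout at day 3, beside 0.603% of all genes tested. *Gata2* ran ahead, at 4.76 to 4.98 and 4.01 to 4.69 TPM in wild-type and knockout libraries at day 1 and at 13.3, 13.5 and 15.8 and 45.8, 43.7 and 39.1 TPM at day 3 (interaction 1.70 (SE 0.14, adjusted p = 6.61e-05)). *Ascl2*, a bHLH factor of trophoblast and stem cells, was at 5.59, 5.21 and 4.43 TPM in wild-type libraries and 23.3, 19.5 and 19.3 TPM in those of the knockout at day 3, and fell in wild-type cells while it rose in the knockout (interaction 2.46 (SE 0.22, adjusted p = 9.79e-05)). *Tfap2c* was level at day 1 and at 4.35, 5.86 and 6.87 and 21.5, 20.5 and 22.3 TPM at day 3 (interaction 1.79 (SE 0.18, adjusted p = 0.000199)). *Hand1* was near 0 at day 1 and reached 25.9 to 37.1 TPM in wild-type libraries and 59.2 to 69.5 TPM in those of the knockout (interaction 1.26 (SE 0.20, adjusted p = 0.00362); adjusted p = 0.141 on recovered reads). The exception was *Tead4*, at 36.9, 36.1 and 42.9 TPM in wild-type libraries and 20.3, 22.4 and 25.1 TPM in those of the knockout (interaction −1.26 (SE 0.18, adjusted p = 0.00170)). Of the defining markers, *Elf5* was below the minimum for testing. *Gata3* was at 55.8 to 61.8 TPM in wild-type libraries and 69.4 to 74.98 TPM in those of the knockout at day 3, and *Krt7* at 11.9 to 13.3 and 19.5 to 22.0 TPM. *Cdx2* was lower in the knockout at day 3, at 3.67 to 5.34 against 7.197 to 8.98 TPM (−0.72 in log2, adjusted p = 0.0369, limma). *Krt8*, the most abundant gene of the list, and *Krt18* had interactions of −0.28 and −0.44. The list summed to 5861 to 6063 TPM in wild-type and 5245 to 6207 TPM in knockout libraries at day 3, with overlap.

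Mesoderm and mesenchyme genes had 7 positive calls among 25 (median 0.53; 3 after quantile normalization or with voom) and fibroblast markers 5 among 16 (median 0.84; 2 after quantile normalization), with none negative in either. *Vim*, the mesenchymal intermediate filament, was at 165, 167 and 169 TPM in wild-type libraries and 60.5, 57.2 and 57.1 TPM in those of the knockout at day 1 and overlapped at day 3, at 504, 535 and 530.3 and 516, 460.0 and 506 TPM (interaction 1.42 (SE 0.07, adjusted p = 2.57e-06)). *Cdh2*, N-cadherin, crossed over to 37.7 to 40.4 TPM in the knockout beside 23.0 to 25.05 TPM in wild-type libraries. *Meox1* and *Foxc2*, factors of somites and mesenchyme, ran ahead to 6.61 to 7.56 and 14.8 to 18.7 TPM, beside 1.15 to 1.71 and 4.001 to 5.31 TPM in wild-type libraries at day 3. On recovered reads the calls of *Meox1*, *Foxc2* and *Col3a1* were lost (adjusted p = 0.596, 0.860 and 0.242, limma voom). *Col1a1* was at 24.9, 20.0 and 27.4 TPM in wild-type libraries and 36.4, 43.9 and 37.3 TPM in those of the knockout at day 3, after 4.82 to 5.93 and 3.10 to 3.21 TPM at day 1 (interaction 1.26 (SE 0.18, adjusted p = 0.00159)). The fibroblast list summed to 568.6 to 776 TPM in wild-type and 392 to 518 TPM in knockout libraries at day 1 and to 1027 to 1449 and 1295 to 1664 TPM at day 3, with *Fn1* the most abundant, and the defining markers *Postn* and *Lum* did not reach the minimum for testing. *Col3a1* was listed at 0 in 5 of the 6 libraries at day 1 and at 4.14, 3.94 and 4.40 TPM in wild-type libraries and 9.35, 10.1 and 10.8 TPM in those of the knockout at day 3. The part of fibroblast-like cells in these results was not tested. Of 30 collagen genes, 5 had a positive and 1 a negative call (median 0.40; 3 and 1 after either scaling, 8 and 1 with voom).

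Neural progenitor genes were sparse, since 12 of 22 were tested, and 3 of the 12 had positive calls (median 0.69). These were *Ncam1*, *Irx3* and *Sox3*. *Sox3* was at 44.3, 39.0 and 40.8 TPM in wild-type libraries and 8.73, 7.85 and 9.39 TPM in those of the knockout at day 1 and at 19.7, 20.4 and 18.5 and 11.1, 10.9 and 8.24 TPM at day 3, so the wild type came down toward a lower knockout level (interaction 1.23 (SE 0.16, adjusted p = 0.000869)). *Neurog2* did not reach the minimum for testing.

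The genes with the most extreme interactions mostly crossed over or caught up. The 12 most positive and 12 most negative were taken from the protein-coding genes called with a group mean of at least 5 TPM. *Tgfbi* (ENSMUSG00000035493; chromosome 13, 56609523 to 56639562), a secreted protein of the extracellular matrix induced by TGFβ, was at 179.6, 165 and 150.1 TPM in wild-type libraries and 77.0, 69.9 and 68.7 TPM in those of the knockout at day 1. Its levels at day 3 were 25.4, 21.7 and 21.9 and 77.7, 73.6 and 72.1 TPM. It fell by 2.79 on the log2 scale in wild-type cells and stayed level in the knockout (0.05, adjusted p = 0.633), so that the same knockout level was below wild type at day 1 and above it at day 3 (interaction 2.84 (SE 0.12, adjusted p = 1.14e-06)).

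*Igfbp3* (ENSMUSG00000020427; chromosome 11, 7206086 to 7213923), a binding protein of insulin-like growth factors, was at 107, 91.2 and 96.4 TPM in wild-type libraries and 80.5, 66.4 and 61.0 TPM in those of the knockout at day 1. At day 3 the wild type had fallen to 62.6, 56.8 and 60.2 TPM and the knockout had risen to 255, 269 and 274 TPM (interaction 2.63 (SE 0.13, adjusted p = 2.57e-06)). *Sertad4* moved in the same way at a lower level, from 22.8 to 25.8 TPM at day 1 to 9.72 to 10.2 TPM at day 3 in wild-type and from 8.48 to 10.2 TPM at day 1 to 21.03 to 22.6 TPM at day 3 in knockout libraries. The ion channel gene *Asic2* and the forkhead gene *Foxi3* crossed over as well, with interactions of 2.79 and 2.76.

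Genes that caught up upward included *Gadd45g*, a growth arrest and DNA damage response gene. It had the lowest knockout level relative to wild type at day 1 of the 24 extremes, at 3.44, 3.80 and 4.25 TPM against 36.3, 42.5 and 43.4 TPM. At day 3 these levels were 61.1, 61.9 and 52.8 TPM in knockout and 109.6, 115 and 92.5 TPM in wild-type libraries, still lower (interaction 2.27 (SE 0.15, adjusted p = 1.54e-05)). *Hsd11b2*, which inactivates glucocorticoids, was at 4.49 to 6.72 TPM in the knockout beside 21.3 to 28.4 TPM in wild-type libraries at day 1, then at 48.7 to 59.0 TPM beside 41.6 to 45.8 TPM at day 3. The homeobox genes *Dlx5* and *Msx1* rose in the knockout by 2.54 and 2.01 in log2 with little change in wild-type cells (0.29 and −0.05). *Neurog3*, *R3hdml*, *Olig3* and *Agmat*, in contrast, were met by wild type. *Neurog3*, a proneural factor, fell from 33.5 to 41.7 TPM in wild-type libraries and 6.66 to 7.98 TPM in those of the knockout to near 0 in both (interaction 2.36 (SE 0.34, adjusted p = 0.00161); 2.81 with adjusted p = 0.101 on recovered reads), where the groups overlapped.

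On the negative side, *Serpinb6c*, a serine protease inhibitor gene, had the most negative interaction. Its level was 1.26, 0.153 and 1.27 TPM in wild-type libraries and 11.6, 5.97 and 12.6 TPM in those of the knockout at day 1, against 23.3, 25.8 and 21.8 TPM and 13.2, 8.84 and 8.11 TPM at day 3, so the wild type rose past a level knockout (interaction −3.73 (SE 0.44, adjusted p = 0.000497)). *Serpinb6c* belongs to a cluster of related genes, and reads shared with them would make its values uncertain. *Cbr3* and *Hopx* came down from a higher knockout level, *Cbr3*, a carbonyl reductase, from 70.7 to 84.9 TPM beside 15.1 to 17.4 TPM to overlapping levels below 5 TPM. *Mybpc3* and *Pdzd3* fell behind, reaching 1.303 to 2.35 and 3.27 to 3.94 TPM in the knockout while wild-type libraries reached 10.1 to 11.98 and 14.3 to 16.0 TPM. *Slc39a8*, a zinc and manganese importer, rose in both but more in wild-type cells, to 10.9 to 13.7 TPM against 5.03 to 5.76 TPM, and so crossed from above to below. *Lgals9*, a galectin, fell in the knockout alone, from 8.44 to 11.95 TPM at day 1 to 1.27 to 3.58 TPM at day 3.

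**Figure D4:**
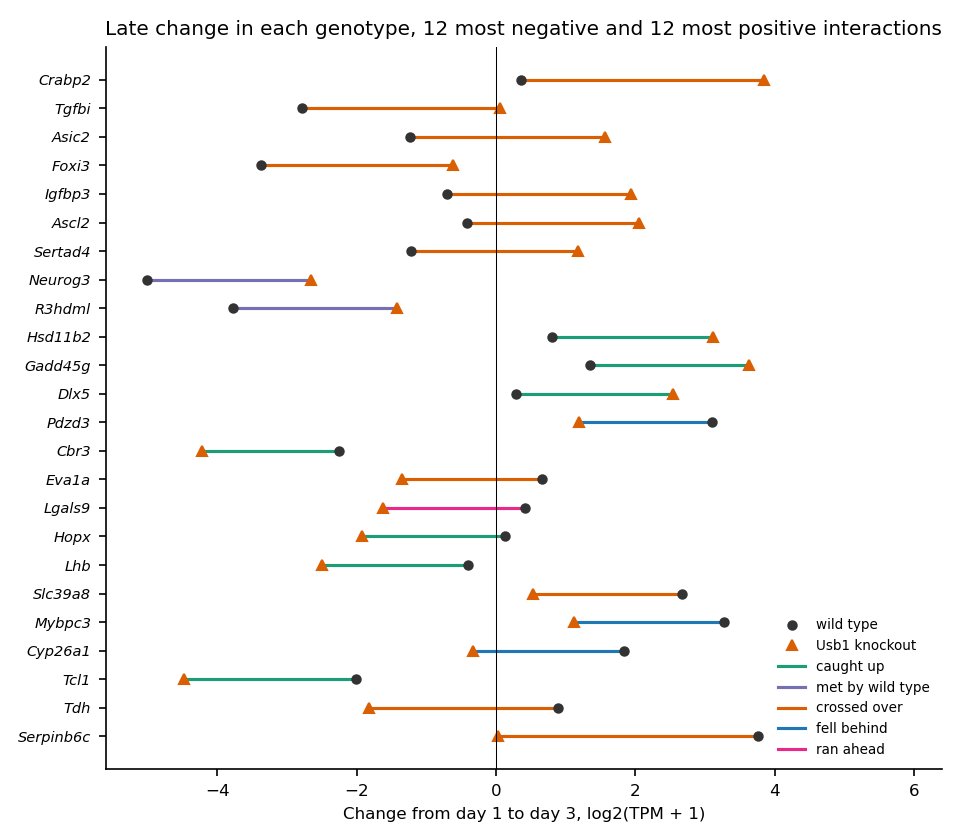
Change from day 1 to day 3 in log2(TPM + 1) in wild-type cells (circles) and in the knockout (triangles) for the 12 genes with the most positive and the 12 with the most negative interaction, with the joining line coloured by class and its length equal to the interaction. Where the line spans 0, as for *Igfbp3*, *Ascl2*, *Sertad4*, *Asic2*, *Tdh* and *Eva1a*, the gene moved in opposite directions in the genotypes.

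Of 28 imprinted genes, 5 were called and all were positive (*Mest*, *Dlk1*, *Igf2*, *Peg10* and *Cdkn1c*), with a median of 0.30. Without knockout replicate 1 at day 3, 8 were positive. *Mest* was at 113, 106 and 104 TPM in wild-type libraries and 98.1, 91.5 and 88.4 TPM in those of the knockout at day 1 and at 388, 382 and 445 and 718, 778 and 856 TPM at day 3 (interaction 1.16 (SE 0.11, adjusted p = 0.000146); 0.94 and so under 2-fold after scaling to an equal median). *Igf2*, the paternally expressed growth factor gene, was below 1 TPM in each library at day 1 and reached 16.5, 15.1 and 23.5 TPM in wild-type libraries and 31.3, 52.5 and 48.0 TPM in those of the knockout. Its interaction was 1.33 (SE 0.29, adjusted p = 0.0179), and the call was lost on recovered reads (adjusted p = 0.196, limma voom). *Peg10* rose in both genotypes, to 499.8 to 727 and 856 to 1253 TPM. *Cdkn1c*, the cell cycle inhibitor p57, fell in both, from 326 to 345 TPM at day 1 to 78.3 to 85.7 TPM at day 3 in wild-type and from 174 to 198 TPM at day 1 to 124 to 149.9 TPM at day 3 in knockout libraries.

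The 3 called p53 targets of 20 were positive (*Trp53inp1*, *Plk3* and *Pmaip1*; median 0.51; 1 call after scaling to an equal median and 2 after quantile normalization), while *Cdkn1a* and *Mdm2* had interactions of −0.08 and −0.04. *Trp53inp1*, a stress-induced proapoptotic gene, was at 63.7 to 72.9 TPM against 138 to 150.2 TPM at day 1 and overlapped with wild type at day 3. The Wnt pathway had 3 positive calls among 26 (*Dkk1*, *Fzd10* and *Wnt6*; median 0.49), against 2 positive and 1 negative after quantile normalization or scaling to an equal median and 3 and 1 with voom. *Dkk1*, a secreted Wnt inhibitor, crossed over, with 0.167 to 0.395 TPM in the knockout beside 1.54 to 2.63 TPM in wild-type libraries at day 1, then 129.5 to 147 TPM beside 87.8 to 94.3 TPM at day 3 (interaction 1.86 (SE 0.19, adjusted p = 0.000226)). The BMP list had 1 positive call among 22 (median 0.41), the LIF and STAT3 list 1 among 18 (0.16), and the Nodal and activin list 1 negative call, *Fst*, among 17 (0.31). These medians were 0.21, −0.04 and 0.09 after scaling to an equal median. The BMP list had 3 positive calls with voom. After scaling to an equal median the LIF and STAT3 list had 1 positive and 1 negative call and the Nodal and activin list 2 negative calls, and the latter had 1 of each without knockout replicate 1 at day 3. Of 20 glycolysis symbols, a symbol of which is listed for 2 genes, *Ldhb* and *Slc16a3* were called positive (median 0.44), neither of them after scaling to an equal median and 1 of them after quantile normalization or with voom. Of 25 germline and meiosis genes, *Rec8*, a meiotic cohesin, was called positive and *Tex101* negative (median 0.07). The call of *Tex101* was lost without knockout replicate 1 at day 3 (−1.25, adjusted p = 0.0524, limma), with voom and with the replicate block. *Rec8* was at 100.1, 102 and 103 TPM in wild-type libraries and 34.98, 34.5 and 29.6 TPM in those of the knockout at day 1 and at 323, 314 and 318 and 259, 257 and 240.1 TPM at day 3.

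Several lists had no call. These were 30 DNA replication genes (median 0.10), 23 cholesterol synthesis genes (0.30), 12 DNA methylation genes (0.38), 5 tested 2-cell-like genes (0.41), 19 genes of U6 snRNA biogenesis (−0.02) and 13 mitochondrially encoded genes (−0.51). Over all genes tested, 4898 had an unadjusted p under 0.05. The interaction was called for 2.78% of all genes tested, so a list of this size can have no call without differing from the rest. The U6 biogenesis genes, which act in the pathway of USB1, had a median below the 0.14 of all genes. Their lack of calls does not set them apart. The 13 mitochondrial genes each had an interaction below 0. Their protein-coding share of all TPM was 4.19% to 4.39% in wild-type and 4.63% to 5.03% in knockout libraries at day 1, and 7.49% to 8.32% in wild-type and 6.48% to 7.49% in knockout libraries at day 3, so the groups overlapped at the rim at day 3. Among the Y-linked genes the call of *Uba1y* rests on wild-type levels alone, since the knockout is at 0 throughout.

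**Figure D5:**
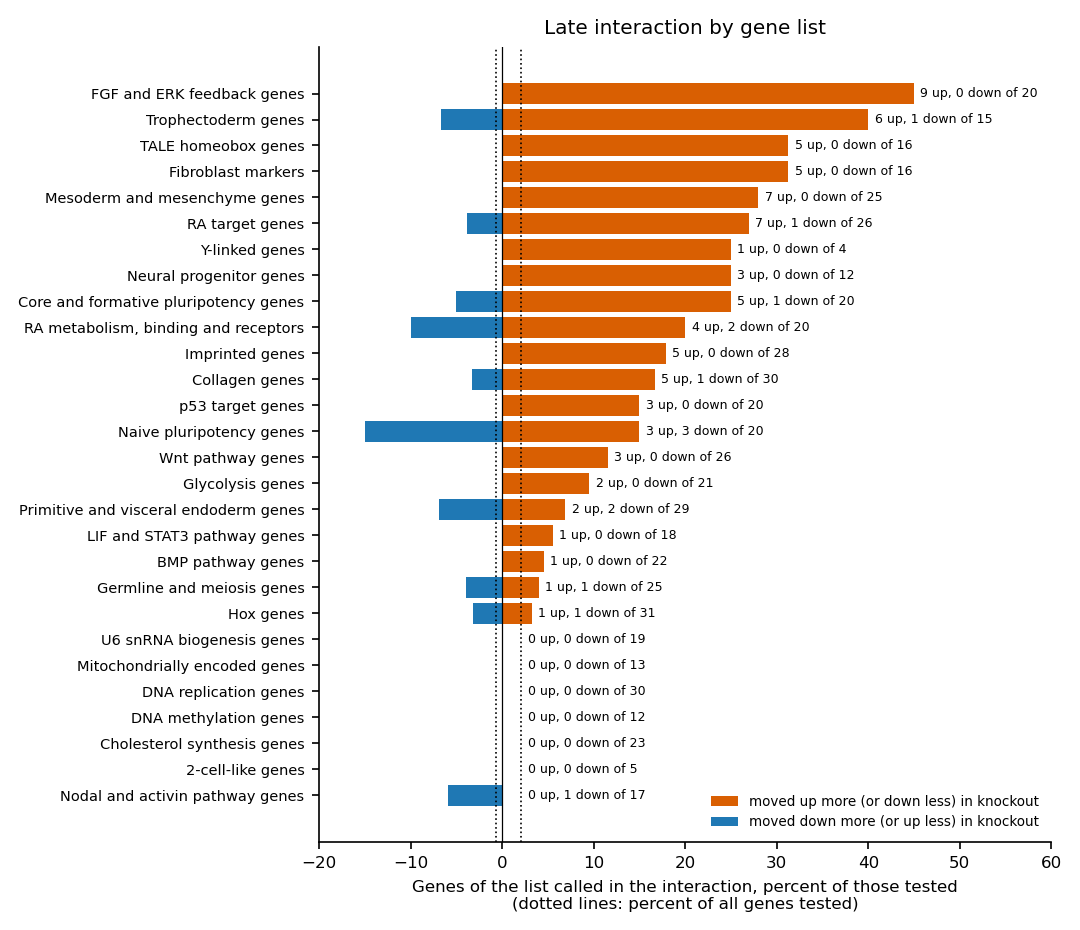
For each of 28 gene lists, the percent of its tested genes called in the interaction, with positive calls to the right and negative calls to the left; the counts stand at the bars and the dotted lines mark 2.1% and 0.674%, the shares among all genes tested. FGF and ERK feedback genes (9 of 20) have the longest bar to the right in the values plotted, though not after quantile normalization (6 of 20, beside 5 of 15 trophectoderm genes), scaling to an equal median (5 of 20 beside 5 of 15) or voom (7 called, as among the fewer fibroblast markers), and naive pluripotency genes (3 of 20) the longest to the left.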

How the data were processed

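RNA from R1/E cells was sequenced as NEBNext Ultra libraries on an Illumina NovaSeq platform. The submitters' processing notes name HISAT2 2.1.0, StringTie 1.3.6 and GRCm38.p6. The authors deposited TPM, computed from read numbers and gene lengths. The authors tested counts with DESeq2. Since the deposited values are not counts, limma 3.58.1 (R 4.3.3) was fitted here to log2(TPM + 1), with 4 group means, no further scaling between libraries, and a trend of the variance with expression. A gene was tested where 3 or more of the 12 libraries had at least 1 TPM, and p-values were adjusted by Benjamini-Hochberg over the 19580 genes.

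Gene positions and exon lengths were taken from GENCODE M21, which holds 54495 of the 54532 identifiers, with the same symbol for 53921. To recover reads, TPM was multiplied by exon length, and the product was divided by the value of 1 read in that library. This gave whole reads (within 0.01) for 96.3% to 96.7% of the genes above 0 in the 12 libraries. limma's voom on these reads was an alternative. It called 583 genes, and it holds no value for *Cyp26a1*, *Spry4*, *Gata6*, *Ttr*, *Pmaip1* and others whose reads did not come out whole. The depth of a library is its total of these reads, and at this depth genes of low TPM rest on few reads.

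A gene crossed over where the genotype differences at day 1 and day 3 both passed an adjusted p of 0.05 with opposite signs. A gene that had not crossed over caught up, or was met by wild type, where the day 1 difference passed and was the larger. The knockout then moved at least as far as wild type, or less far. Such a gene fell behind, or ran ahead, where the day 3 difference passed and was at least as large. The knockout then moved less far than wild type, or at least as far. The genes named are those of 28 lists drawn up from general knowledge, the 12 most positive and 12 most negative interactions among called protein-coding genes with a group mean of at least 5 TPM, and the 4 largest in each class under the same conditions. The comparison, the lists and the genes were chosen with earlier results of these data known. Of the lists, *Dux*, *Meiosin* and *Prpf24* matched no symbol in the table, and a few listed genes are not reported here. The fit was tested on simulated data. Alternatives tried were other thresholds, a pseudocount of 0.1, a filter at 5 TPM or none, a robust variance model, scaling to an equal median, quantile normalization, all 17 libraries, replicate number as a block, protein-coding genes alone, voom, and leaving out each library. Tables were made in Python 3.11.15 with pandas 2.3.3 and numpy 2.4.6, and figures with matplotlib 3.10.9.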

Additional observations from a re-analysis of the deposited data

Results flagged for a closer look

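The difference between the genotypes in the late response, tested as an interaction, was past both thresholds in 544 genes. The 24 protein-coding genes of at least 5 TPM in a group with the most extreme interactions (log2, limma) are given here, and each passed an adjusted p of 0.05 in the test of the difference itself. On the negative side these were *Serpinb6c* (−3.73), *Tdh* (−2.70), *Tcl1* (−2.46), *Cyp26a1* (−2.18), *Mybpc3* (−2.15), *Slc39a8* (−2.14), *Lhb* (−2.10), *Hopx* (−2.05), *Lgals9* (−2.05), *Eva1a* (−2.01), *Cbr3* (−1.96) and *Pdzd3* (−1.91). On the positive side they were *Crabp2* (3.49), *Tgfbi* (2.84), *Asic2* (2.79), *Foxi3* (2.76), *Igfbp3* (2.63), *Ascl2* (2.46), *Sertad4* (2.40), *Neurog3* (2.36), *R3hdml* (2.35), *Hsd11b2* (2.30), *Gadd45g* (2.27) and *Dlx5* (2.25). *Lhb* lies 3640 bases from *Ntf5* on chromosome 7 and was not called on recovered reads (−2.94, adjusted p = 0.0559, limma voom). The interaction of *Ntf5* was −1.91. The causes of these differences were not tested.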

How the results depend on the processing

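The number of interaction genes stayed within 1.5 times of 544 under a pseudocount of 0.1 (603), no filter (480), a filter at 5 TPM (429), a robust variance model (536), all 17 libraries (501), protein-coding genes alone (512), quantile normalization (458), scaling to an equal median (452) and voom (583). Leaving out a library gave 421 (knockout replicate 3 at day 1) to 676 genes (knockout replicate 1 at day 3). Scaling changed the direction split, to 256 higher and 202 lower genes after quantile normalization and to 247 and 205 after scaling to an equal median. Of the 103 named genes called, 21 were lost after quantile normalization, 25 after scaling to an equal median, 15 of 100 with voom, 7 without knockout replicate 1 at day 3 and 7 with the block. Of the 15 lost with voom, 10 had a group mean under 1 TPM, such as *Col3a1*, *Meox1*, *Foxc2*, *Hand1*, *Igf2* and *Sox17*. Genes of low TPM rest on few reads. The causes of these changes were not tested.

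At day 1, the genes higher in the knockout numbered 177 after quantile normalization, 180 after scaling to an equal median and 178 with voom, and the genes lower numbered 228, 235 and, for protein-coding genes alone, 272. With a pseudocount of 0.1, day 1 gave 769 genes (645 lower), day 3 gave 197 higher, the class that fits no description held 33, and 12 of the genes that ran ahead differed at day 0. With voom, day 3 gave 464 genes (223 higher), the late change in the knockout was downward for 1957 genes, and 43 genes fit no class. That class held 6 genes with the filter at 5 TPM, 11 with protein-coding genes alone and 8 after quantile normalization, and the filter at 5 TPM left 80 genes met by wild type.

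With a 1.5-fold minimum the interaction was called for 1174 genes (915 higher, 259 lower), day 1 for 1683 (289 and 1394), day 3 for 849 (385 and 464), the wild-type late change for 6163 (2922 and 3241) and that of the knockout for 6466 (3848 and 2618). The classes then held 423 genes that caught up, 255 met by wild type, 178 that fell behind, 118 that ran ahead and 52 others. With adjusted p alone the counts were 1799 (1390 and 409), 4089 (847 and 3242), 1812 (940 and 872), 9857 (4421 and 5436) and 10215 (5760 and 4455). The classes then held 668, 395, 174 that crossed over, 296, 156 and 110.

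Leaving out a library in turn gave 96 (knockout replicate 3 at day 1) to 199 genes that caught up. It gave 41 (wild-type replicate 2 at day 3) to 69 that ran ahead and 15 to 54 others (knockout replicate 1 at day 3). Day 0 held 2 wild-type libraries. The counts given next without either of them therefore measure no spread between wild-type libraries, and no conclusion is drawn from them. At day 0, leaving out each of the 5 libraries gave 1187 (wild-type replicate 1) to 4786 (wild-type replicate 2) of all genes tested, with 1381 and 1514 without knockout replicates 2 and 3. It gave 5 to 30 of the genes that fell behind, with the same wild-type libraries at the limits, 2 (knockout replicate 3) to 17 (wild-type replicate 2) of those that ran ahead and 0 to 4 of the others.

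The replicate numbers share no stated source. Deviations from group means of same-numbered libraries correlated at −0.09 to 0.14 (18 pairs, 1 over 0.1), and 6 of 12 libraries matched best with their own number, so the samples were not treated as paired. With a replicate block 484 genes were called (368 higher, 116 lower), 466 of them among the 544. *Ttr*, which was at 0 TPM in the knockout at day 1 and not called (−0.81), changed sign with a pseudocount of 0.1 (1.12, adjusted p = 0.0334, limma).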
